A study of Rattus norvegicus with 36 samples.

Results

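A set of 61 ion channel genes was followed in rat extraocular muscle (EOM), which moves the eye, and in a leg sample of gastrocnemius and soleus. They are the genes whose symbols begin with Kcn, Scn, Cacn, Clcn or Hcn and whose array signal was above an intensity of 320 on 3 or more of the 36 arrays. Of 86 such genes with a probe set of 1 symbol on the array, 61 met that level and 25 did not. Where several probe sets carried a gene's symbol, the one with the highest mean stands for the gene. Intensity is the deposited linear signal, and it is compared between samples of 1 probe set, not between probe sets.

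Total RNA was hybridised to Affymetrix rat arrays at postnatal days 0, 7, 14, 21, 28 and 45, with 3 arrays for each muscle at each age. No treatment, strain, sex or genotype is given in the labels, and the gastrocnemius and soleus of the leg sample, a mostly fast and a mostly slow muscle, were not measured apart. Whether the 3 arrays of a group are from 3 animals is not said in the labels, and p-values here cover the spread among these arrays alone, which may be technical.

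Voltage-gated sodium channels start and carry the muscle action potential, and potassium and chloride channels end it and hold the resting potential. In skeletal muscle the voltage-gated calcium channel of the transverse tubule, the dihydropyridine receptor, serves mainly as the voltage sensor that opens the calcium store. In development, T-type calcium channels and small-conductance potassium channels are known from immature or denervated fibres, and adult sodium and chloride channels take over after birth. EOM differs from limb muscle in its fast contraction and in keeping some features of young muscle in the adult.

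The 61 genes comprised 19 pore subunits of voltage-gated potassium channels, 8 calcium channel pores, 5 calcium channel auxiliary subunits, 6 sodium channel pores, 4 chloride channels or exchangers and 3 potassium channel auxiliary subunits. Some carry the prefix without being voltage-gated or chloride channels: 8 inward rectifiers, 2 two-pore potassium channels, 4 calcium-activated potassium channel genes (of which Kcnma1 encodes a channel that voltage also opens and Kcnmb1 its beta subunit) and 2 epithelial sodium channel subunits. None was an Hcn gene. Kcnn2 was not analysed here.

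The level decided membership at its edge. Kcnc2, a Kv3 potassium channel, was above it on exactly 3 arrays, and Kcna3 and Kcnab1 were above it on 2 and stayed out. Kcna2 reached 320 exactly at its highest and so was not above it. Kcnj2, the classical muscle inward rectifier Kir2.1, had a highest value of 82.9 and was left out. The 21 genes above the level on all 36 arrays included Cacng1, Cacna1s, Cacna2d1, Kcnj11, Scn4a and Kcnc4. Another 21 genes were above it on under 18 arrays, and 23 had at least 1 array at or under the floor of 100.9 to which low values were raised.

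Replicates of a group correlated at 0.877 to 0.953 over the 6674 probe sets tested. The median within-group SD on the log2 scale was 0.478 for the channel genes and 0.415 for all 6674 probe sets tested. It was 0.373 for the 15 channel genes of mean intensity 1000 or more and 0.576 for the 46 dimmer ones, so differences in the dimmer genes are less precise. The array of EOM day 45 replicate 2 stood apart: 10.02% of its values lay at the floor and 52 channel genes were above the level on it, against 15.64% to 23.55% and 35 to 47 on the other arrays. The EOM label was borne out by the extraocular myosin heavy chain Myh13 from day 7 on: its lowest EOM value was 1612.5 at day 7 and at least 16394 from day 14 on, and its highest leg value over all ages was 1146.7. At day 0 Myh13 did not separate the muscles, at 180.3 to 373 in EOM and 305 to 377.5 in leg.

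**Figure D1:**
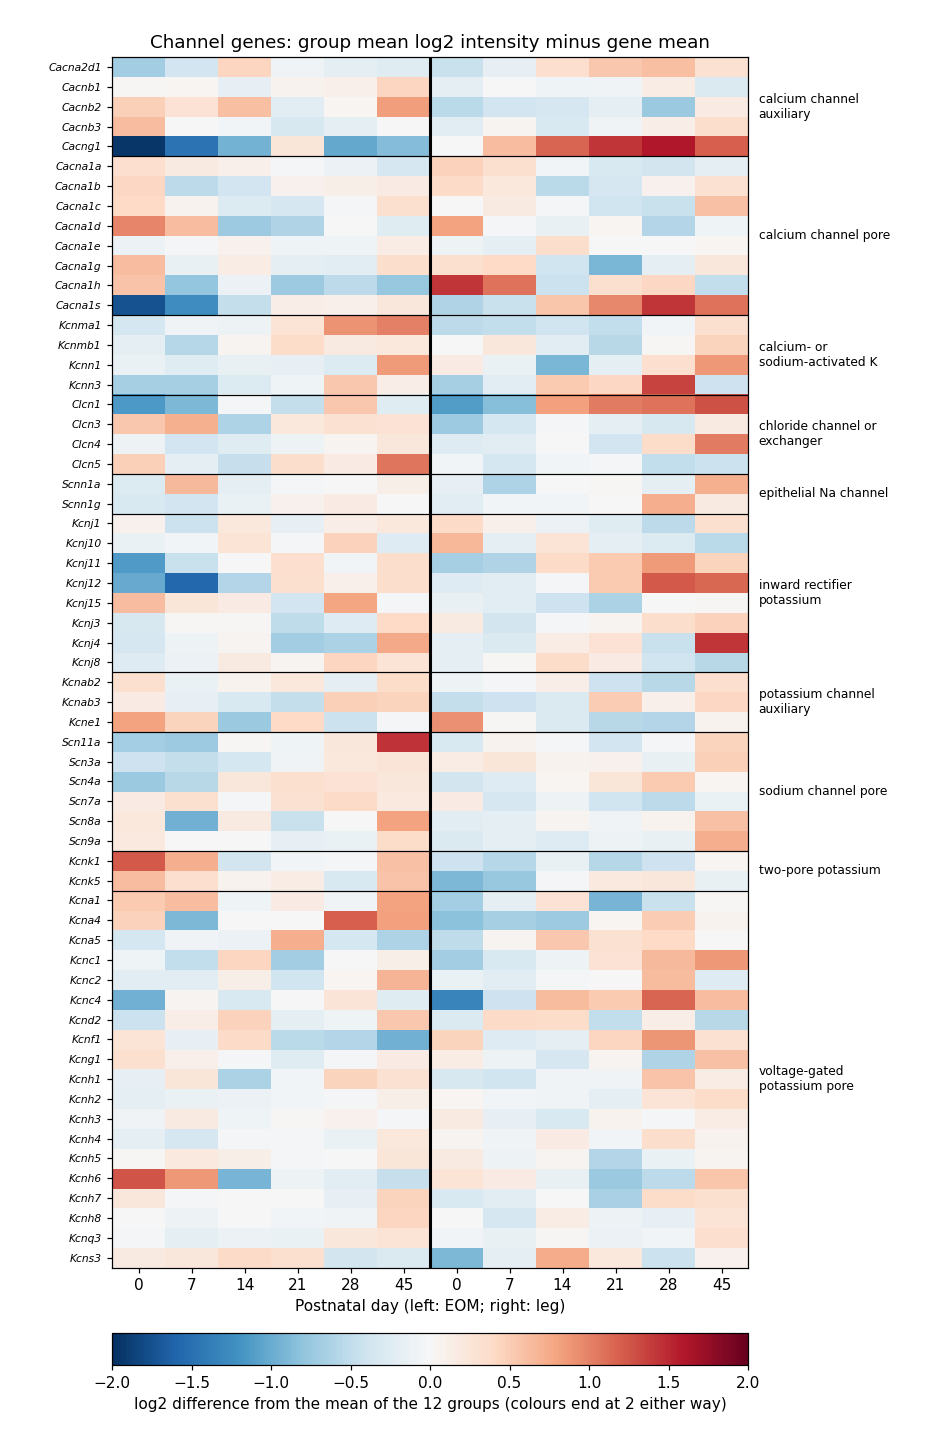
Group mean log2 intensity of each of the 61 channel genes (rows, by class) minus the gene's mean over the 12 groups, for EOM (left) and leg (right) at the 6 ages (columns). Values run from -1.94 to 1.60, and the rows of Cacng1 and Cacna1s are low in young EOM and high in older leg.

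The channel genes that separated the muscles at most ages were 2 parts of the dihydropyridine receptor, Cacng1 and Cacna1s, and more channel genes rose than fell with age. A gene passed the test at a Benjamini-Hochberg adjusted p under 0.05, over all 6674 probe sets tested. Between the muscles at day 0, 2 channel genes were higher in EOM, where 3.93% of all probe sets tested were, and 2 were lower, where 2.4% were. At day 7 it was 1 higher (3.33% of all) and 2 lower (1.65%), at day 14 it was 0 higher (2.61%) and 2 lower (2.31%), and at day 21 0 higher (3.48%) and 1 lower (0.554%). At day 28 there were 3 higher (7.63%) and 5 lower (4.17%), and at day 45 there were 1 higher (6.89%) and 2 lower (3.69%). The day 28 count of 8 fell to between 3 and 5 when any 1 of the 6 arrays was left out. From day 7 to day 21 the share of channel genes that passed was 4.92% at its highest and 1.64% at its lowest. At day 28 it was 13.1%, when the shares of all probe sets were also the highest of any age (7.63% higher and 4.17% lower).

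Same-numbered EOM and leg arrays deviated together at days 7, 14 and 21, though weakly (lowest correlation 0.1014). The labels do not say that equal numbers pair samples, and these ages were picked from the same data. The fit with the replicate number as a block is given here. At day 7 it called 6 channel genes in place of 3 (5.48% of all probe sets with the block), adding Cacna1s (-0.79, limma adjusted p = 0.036), Cacna1h (-1.85, 0.049) and Clcn3 (1.06, 0.0119). At day 14 it called 3 in place of 2 (6.91%), adding Kcnc4 (-0.94, 0.00648). At day 21 it called 3 in place of 1 (5.27%), adding Cacna1s (-0.83, 0.0286) and Clcn1 (-1.52, 0.0299). At day 28 the block added Kcnc4 (-0.90, 0.00501) and lost Kcnj8 and Kcnma1. At day 45 it added Kcnc4 (-0.86, 0.00732), Clcn1 (-1.51, 0.0162) and Kcnf1 (-1.27, 0.0392) and lost Kcnj8.

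Averaged over the ages, 6 channel genes were higher in EOM (19.8% of all probe sets were) and 9 were lower (12%), 15 of 61 in all. The higher ones were Cacnb2, Clcn3, Kcna1, Kcnk1, Kcnma1 and Scn7a. The lower ones were Cacna1h, Cacna1s, Cacna2d1, Cacng1, Clcn1, Kcnc4, Kcnf1, Kcnj11 and Kcnj12. Over days 14 to 45 alone, an average added after seeing the data, 3 were higher and 8 were lower, where 28.3% of all probe sets passed in either direction. Of the higher ones Cacnb2 (0.59, limma adjusted p = 0.106), Clcn3 (0.14, 0.634), Kcna1 (0.47, 0.259) and Kcnk1 (0.30, 0.17) no longer passed. The median difference of the 61 genes was 0.04 on the log2 scale, as it was over all probe sets (0.04).

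From day 0 to day 45 in EOM, 7 channel genes rose (12.9% of all probe sets did) and 3 fell (18.4%). In leg, 11 rose (14.4%) and 1 fell (18.4%). The median change of the 61 genes was 0.31 in EOM and 0.44 in leg, where that of all probe sets was -0.04 and 0.06. Without EOM day 45 replicate 2, 9 instead of 10 passed in EOM, and 2 instead of 3 between the muscles at day 45. Cacna1s, Cacng1, Kcnj11, Kcnj12 and Kcnma1 were the 5 that rose in both. By the F test over the 6 ages, 12 channel genes changed in EOM (31.3% of all probe sets did) and 13 in leg (35.9%). For the difference of the 2 changes, 0 channel genes passed in limma, where 2.25% of all probe sets had a change more upward in EOM and 1.45% one more downward, while 8 had an unadjusted p under 0.05. These 8 were Cacnb3, Clcn3, Clcn4, Kcnc1, Kcnc4, Kcnh6, Kcnj8 and Kcnk1, and each except Kcnj8 had the lower value for EOM. The share of all probe sets at that unadjusted level is not given here. Neither the 8 nor their direction is therefore read as a trait of the channel genes. The difference of the 2 changes had little power: on simulated data it recovered 12% of 2-fold and 54% of 4-fold differences.

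The clearest difference between the muscles lay in the dihydropyridine receptor. Cacng1, which encodes its gamma-1 subunit, was lower in EOM than in leg at all 6 ages, by 4.003-fold on average. Cacna1s, which encodes its voltage-sensing pore Cav1.1, had negative differences at all 6 ages, by 1.997-fold on average, and passed the test as lower in EOM at 4 of them (at the other 2, days 7 and 21, it passed with the replicate block). Both rose with age in both muscles.

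Cacng1 read 1550.2, 1388 and 1586.8 on the EOM arrays at day 0 and 5809, 6252.7 and 5236.7 on the leg arrays. At day 28 it read 2811.7, 2925.4 and 2779.3 in EOM and 16255.7, 18443.3 and 17806.9 in leg. At day 45 the EOM values were 3067.1, 3097.7 and 3335.8 and the leg values 11433.4, 12582.7 and 16352. At each of these ages every EOM array lay below every leg array. The log2 difference, EOM minus leg, was -1.93, -2.10, -2.10, -1.18, -2.62 and -2.07 at days 0, 7, 14, 21, 28 and 45 (SE 0.29 each, n = 3 and 3), with limma adjusted p from 2.86e-07 to 0.018. Averaged over the ages it was -2.001 ± 0.12 (SE; limma adjusted p = 5.95e-14).

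Day 21 was the exception in Cacng1. Its EOM arrays read 9193.4, 12654.9 and 2772.4, and its leg arrays 12508.8, 20515 and 14560.3. The second EOM array was above the lowest leg array, so the muscles overlapped, and the other EOM arrays were below every leg array. Without the third EOM array the difference at day 21 was -0.52 (limma adjusted p = 0.238), without leg replicate 2 it was -0.98 (0.129), and after quantile normalization -0.95 (0.0989). Myh13 was at 16808.7 or more on all 3 of these EOM arrays. Of 5 leukocyte markers tested, 2 were higher in EOM at day 21 and 0 lower: Cd74 (2.64 ± 0.64, limma adjusted p = 0.0143) and Lyz2 (2.70 ± 0.41, 9.44e-05). The sum of the 5 was 22859.7, 6433.3 and 23539.8 on EOM replicates 1, 2 and 3 and 3197.3 to 4549.3 in leg, and the EOM array with the lowest sum was the one with the highest Cacng1. The part of leukocyte content in the day 21 values was not tested.

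Cacna1s showed the same order at smaller size. It read 1271.6, 1138.9 and 1783.6 in EOM and 2050.5, 3531.9 and 3767.8 in leg at day 0. By day 28 it read 4439.9, 4741.4 and 5658.8 in EOM and 11551.4, 12891.8 and 12712.7 in leg. The EOM arrays lay below the leg arrays at both ages. At day 7 (-0.79, limma adjusted p = 0.0744) and day 21 (-0.83, 0.0589) it did not pass without the block. The log2 differences that passed the test were -1.13 at day 0, -1.03 at day 14, -1.33 at day 28 and -0.86 at day 45 (SE 0.26 each; limma adjusted p = 0.00379, 0.0129, 0.00053 and 0.0258). The mean over the ages was -0.998 ± 0.10 (limma adjusted p = 6.94e-09), and a second, dimmer probe set of the gene gave -1.98 ± 0.31 (7.88e-06). The call at day 14 was lost without leg replicate 1 or 2 (difference -0.91 at its smallest). At day 45 it was lost without EOM replicate 2 or 3 or leg replicate 1 or 2, with a difference of -0.65 at its smallest.

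Between day 0 and day 45 Cacna1s rose 3.89-fold in EOM (log2 difference 1.96 ± 0.26, limma adjusted p = 5.09e-07) and 3.23-fold in leg (1.69 ± 0.26, 4.71e-06). Cacng1 rose 2.10-fold in EOM (1.07 ± 0.29, 0.00562) and 2.31-fold in leg (1.21 ± 0.29, 0.00177). The difference of these changes was 0.27 for Cacna1s, with a 95% interval of -0.47 to 1.01, and -0.14 for Cacng1, with an interval of -0.99 to 0.71. Neither passed the test.

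The other subunits of the receptor behaved less alike. Cacna2d1, the alpha-2/delta-1 subunit, read 5651.5, 3861.9 and 9348.4 in EOM at day 45 and 5858.9, 7830.8 and 13836.3 in leg. The muscles overlapped there, and no single age passed the test. Its mean difference over the ages did (-0.39 ± 0.14, limma adjusted p = 0.0288), and that call was lost without any 1 of 5 arrays (EOM day 14 replicate 3, EOM day 45 replicate 2, leg day 0 replicate 2, leg day 7 replicate 2 or leg day 45 replicate 3). Cacnb1, the beta-1 subunit, passed in no comparison, with differences of -0.09 to 0.72 over the ages. Cacnb2, a beta subunit best known from heart, was higher in EOM on average (0.67 ± 0.22, 0.0196).

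Markers of muscle fibres differed between the samples too. Of 12 tested fibre markers, 1 was higher and 4 were lower in EOM at day 0, 1 higher and 3 lower at day 7, and 1 higher and 1 lower at day 28 and at day 45. The higher one at days 7, 28 and 45 was Myh13. At day 0 it was creatine kinase Ckm (4.64 ± 1.38, limma adjusted p = 0.0383), at 8153.2 to 9086.7 in EOM and 0.1 to 3986.8 in leg. Their summed intensity at day 28 was 152330.3 to 207275.3 in EOM and 193824.6 to 213046.9 in leg. At day 0 it was 74753.5 to 93940.9 in EOM and 83674.9 to 130522.6 in leg. Ckm read at or near 0 (at most 0.3) on all day 21 and day 28 arrays of both muscles, so this sum is an incomplete measure. The part of fibre content in the channel differences was not tested. Fewer cells of a type and less RNA per cell cannot be told apart in such samples.

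**Figure D2:**
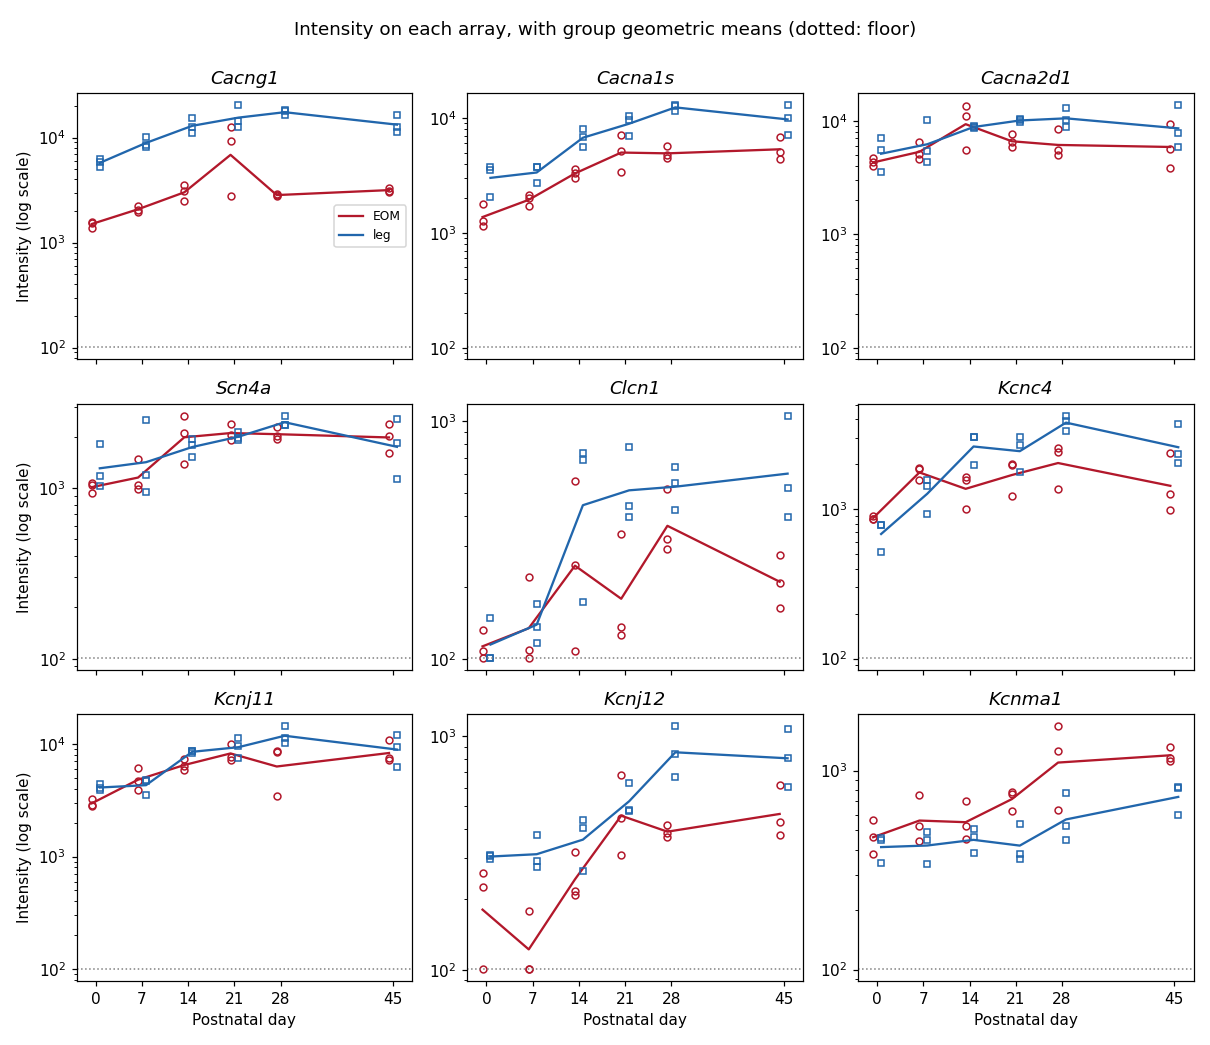
Intensity on a log axis of 9 channel genes on every array, by postnatal day, for EOM (circles) and leg (squares), with lines through the group geometric means and the floor of 100.9 dotted. Every EOM array of Cacng1 is below every leg array at each age except day 21, when 1 EOM array reads 12654.9 and the lowest leg array 12508.8.

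The pore genes Cacna1s, Clcn1 and Scn4a of the muscle membrane are shown with the sequence around their start. Each passed the test between days 0 and 45 in at least 1 muscle, but so did other pore genes that are not shown. Promoter sequences of 300 bases, 250 before the start and 50 after it, were taken from RefSeq on GRCr8 and matched 46 of the 61 genes. The windows are chr13:50045418-50045717 on the plus strand for Cacna1s, chr4:72138928-72139227 on the plus strand for Clcn1 and chr10:91796275-91796574 on the minus strand for Scn4a, each printed 5' to 3' on the gene's strand. Capitals mark 4 motifs searched on both strands: the E-box CAGCTG, bound by myogenic factors, the MCAT element CATTCC, the TATA box TATAAA and the MEF2 motif.
Cacna1s: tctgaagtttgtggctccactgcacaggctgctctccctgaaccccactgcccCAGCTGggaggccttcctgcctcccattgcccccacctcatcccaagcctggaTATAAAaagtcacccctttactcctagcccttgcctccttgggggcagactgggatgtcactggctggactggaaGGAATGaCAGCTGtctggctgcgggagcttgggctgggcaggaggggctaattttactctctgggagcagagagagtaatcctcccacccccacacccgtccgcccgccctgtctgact
Clcn1: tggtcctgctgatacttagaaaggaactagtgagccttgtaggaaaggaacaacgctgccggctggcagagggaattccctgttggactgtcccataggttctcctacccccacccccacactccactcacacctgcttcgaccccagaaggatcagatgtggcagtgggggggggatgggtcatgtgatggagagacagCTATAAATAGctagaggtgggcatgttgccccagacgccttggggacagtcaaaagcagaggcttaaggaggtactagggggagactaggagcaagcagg
Scn4a: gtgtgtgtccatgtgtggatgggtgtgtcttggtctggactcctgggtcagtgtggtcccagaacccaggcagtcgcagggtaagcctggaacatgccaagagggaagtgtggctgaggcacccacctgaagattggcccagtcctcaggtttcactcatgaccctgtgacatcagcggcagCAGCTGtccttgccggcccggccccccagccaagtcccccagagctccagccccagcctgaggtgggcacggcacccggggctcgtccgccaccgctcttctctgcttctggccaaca

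Cacna1s held CAGCTG at positions -197 and -62 from the start, CATTCC on the other strand at -69 and TATAAA at -144. Clcn1 held a MEF2 match at -50, within which TATAAA begins at -49. Scn4a held CAGCTG at -68. CAGCTG occurred in 15.1% of 33469 rat promoters of this length and in 12 of the 46 channel promoters (26.1%), CATTCC in 14.2% and 9 (19.6%), the MEF2 motif in 3.29% and 1 (2.17%), and TATAAA in 14.2% and 3 (6.52%). A match is a run of letters and not a measured site.

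Among the sodium channels, Scn4a, the adult skeletal muscle channel Nav1.4, rose with age in EOM and did not separate the muscles. It read 1069.4, 929.1 and 1039.7 in EOM at day 0 and 2016.1, 1612.2 and 2376.9 at day 45. All day 45 arrays were above all day 0 arrays. The rise was 1.96-fold (log2 difference 0.97 ± 0.29, limma adjusted p = 0.01), and it missed the test without EOM day 45 replicate 3 (0.83, 0.0524) and in the mean over the gene's probe sets (0.81, 0.0601). In leg it read 1178.4, 1820.2 and 1033.9 at day 0 and 1844.4, 1129.8 and 2538.3 at day 45, overlapping (0.42 ± 0.29, 0.278). The leg mean was highest at day 28, and the group means spanned 0.896 log2 units in leg and 1.053 in EOM. By the F test over the ages the leg did not pass. It passed with arrays scaled to the same median (limma adjusted p = 0.0305), with quantile normalization (0.0196) and without leg day 7 replicate 2 (0.00942). The mean difference of Scn4a between the muscles was -0.08, with a 95% interval of -0.32 to 0.16.

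The other sodium channels are best known from nerve. Scn11a, Nav1.9 of sensory neurons, rose in EOM from 128.7, 51.9 and 55.2 at day 0 to 329, 785.1 and 420.5 at day 45. With 2 of the day 0 arrays at the floor the rise was at least 4.36-fold (limma adjusted p = 0.0062). Scn7a, a sodium sensor of glia and Schwann cells, was higher in EOM at day 28, at 3013.8, 2500.1 and 1404.3 against 1309, 1314 and 937.7 in leg. Every EOM array was above every leg array (0.90 ± 0.28, limma adjusted p = 0.0309), although the call was lost without EOM replicate 1 or 2 or leg replicate 3 (0.68 at its smallest). Its mean difference over the ages was 0.45 ± 0.11 (0.00297), and a dimmer probe set of the gene gave 2.23 ± 0.17 (1.65e-11). Scn9a, Nav1.7 of peripheral nerve, rose in leg between days 0 and 45 (1.01 ± 0.38, 0.0402), with overlapping groups, and its second probe set gave -0.28 (0.719). That Scn9a call was lost without leg day 0 replicate 1 or 2 or leg day 45 replicate 1 or 2. Scn8a changed with age in EOM by the F test over the 6 ages (0.0228), from its lowest at day 7 (438.5, 180 and 141.9) to its highest at day 45 (825.4, 1199 and 450.4), a call lost without EOM day 7 replicate 2 or 3 or EOM day 45 replicate 1 or 2.

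Nerve markers were higher in EOM at ages when the brighter probe set of Scn7a was called and at ages when it was not. Of 14 tested axon and Schwann cell markers, 10 were higher and 1 was lower in EOM in the mean over the ages, and 7 were higher and 0 lower at day 28. Their summed intensity at day 28 was 36734.9 to 46482.5 in EOM and 17884 to 19268.3 in leg, while at day 0 it was 33746.6 to 34586.3 and 27120.4 to 32957.8. At day 0, 4 markers were higher and 1 lower while the Scn7a difference on that probe set was -0.01. At day 14, 5 were higher and 0 lower, with sums of 38233.8 to 46645 in EOM and 27193.4 to 32824.2 in leg, while the Scn7a difference on that probe set was 0.08. The mean of the Scn7a probe sets read otherwise. It was higher in EOM at day 0 (0.995, limma adjusted p = 0.018) and day 14 (1.125, 0.00953), and at days 7, 21 and 45. The myelin genes Mbp (2.15 ± 0.20, limma adjusted p = 7.82e-10) and Prx (1.42 ± 0.11, 4.67e-12) were among those higher in the mean. The part of nerve content in the Scn7a difference was not tested.

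Clcn1, the ClC-1 channel that carries most of the resting chloride conductance of muscle, rose in leg. It read 73.8, 84.9 and 149.1 at day 0, and 524.1, 1057.6 and 395.4 at day 45. On 2 of the day 0 arrays it was at the floor, and the rise was at least 5.25-fold (limma adjusted p = 0.00062), a call that held without each array in turn. In EOM it read 93.2, 108.4 and 131.8 at day 0 and 163.9, 274.9 and 209.6 at day 45. The EOM change between these ages did not pass (0.90 ± 0.52, 0.205). Neither did the difference of the 2 changes (-1.49, with a 95% interval of -3.00 to 0.03). The EOM mean was highest at day 28, at 8.506 on the log2 scale against 6.82 at day 0. The group means spanned 1.686 log2 units in EOM and 2.391 in leg. By the F test over the ages Clcn1 did not pass in EOM, but it passed without EOM day 14 replicate 3 (limma adjusted p = 0.0273). In the mean over the ages Clcn1 was lower in EOM (-0.75 ± 0.21, 0.00742). No single age passed without the block under the settings used throughout, with differences of -1.52 (day 21) to -0.02 (day 0). At day 45 the difference was -1.51, with a 95% interval of -2.58 to -0.44 before adjustment. Under some alternatives day 45 passed. Scaling to the same median gave -1.57 (limma adjusted p = 0.0456) and quantile normalization -1.66 (0.0283). A floor at the 30th percentile gave -1.45 (0.0197) and the replicate block -1.51 (0.0162). Without leg day 45 replicate 3 the difference was -1.82 (0.0402). Day 21 passed with the block (-1.52, 0.0299) and without EOM day 21 replicate 2 (-1.97, 0.0377).

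The remaining chloride genes encode chloride-proton exchangers of endosomes. Clcn4 rose 2.46-fold in leg, from 402.5, 431 and 420.6 at day 0 to 1096, 1507.5 and 658.6 at day 45 (1.30 ± 0.31, limma adjusted p = 0.00161). The groups were separate, and the EOM change was 0.32 ± 0.31 (0.472). Clcn3 was higher in EOM at day 0, at 2062.1, 2092.1 and 3169.9 against 805.1, 873.1 and 1408.2 (1.26 ± 0.39, 0.047). Those groups did not overlap, but the call was lost without any of 5 of the 6 arrays and under 5 other settings. Clcn5 passed in no comparison.

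**Figure D3:**
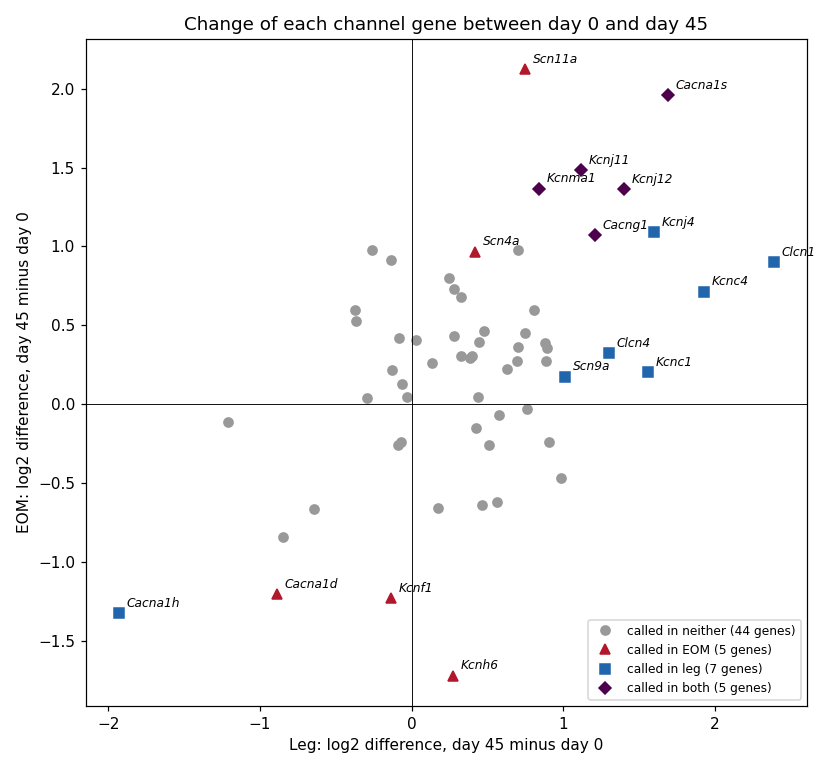
Log2 difference between day 45 and day 0 in leg (horizontal) and in EOM (vertical) for the 61 channel genes, marked by the muscle in which the change passed the test. A total of 5 genes passed in both muscles, all upward, 5 in EOM and not in leg, and 7 in leg and not in EOM.

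Among the inward rectifiers, Kcnj11 and Kcnj12 rose with age in both muscles. Kcnj11, the Kir6.2 pore of the ATP-sensitive potassium channel, read 2891.3, 3212.6 and 2806.2 in EOM at day 0 and 10734.7, 7421.5 and 7136.8 at day 45. In leg it read 4016.8, 3867 and 4417.9 at day 0 and 12053.2, 6207 and 9397.9 at day 45. In both muscles all day 45 arrays were above all day 0 arrays. The rise was 2.79-fold in EOM (limma adjusted p = 5.07e-05) and 2.17-fold in leg (0.00123). Log2 rises of 1.39 (EOM) and 2.26 (leg) were read from a second probe set. Kcnj11 was lower in EOM at day 28 (-0.91 ± 0.26, 0.021), at 8626.3, 8448.3 and 3413 against 11344.3, 14253.2 and 10120.4. Without its lowest EOM array, replicate 3, that difference was -0.47 (0.227), and without leg replicate 2 it was -0.77 (0.099).

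Kcnj12, the Kir2.2 channel, read 34.4, 226 and 259.1 in EOM at day 0 and 618.2, 428.6 and 378.2 at day 45. It read 297.4, 308.3 and 310 in leg at day 0 and 803.6, 1072.9 and 603 at day 45. The late arrays were above the early ones in both muscles, by at least 2.57-fold in EOM (limma adjusted p = 0.00276) and 2.64-fold in leg (0.00198). Between the muscles it was lower in EOM at day 7 (at least 2.56-fold, 0.016), when 2 EOM arrays were at the floor, and at day 28 (2.19-fold, 0.0292). The first of these calls was lost without EOM day 7 replicate 1 or 2 or leg day 7 replicate 1, and the second without any of 5 arrays at day 28 (all but leg replicate 2). The mean difference over the ages was -0.80 ± 0.14 (4.61e-05), called without each array in turn.

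Kcnj4, the related Kir2.3 channel, rose 3.03-fold in leg, from 135.8, 188.1 and 231.3 at day 0 to 679, 518.4 and 466.7 at day 45 (limma adjusted p = 0.00543), while its second probe set gave 0.62 (0.269). In EOM the Kcnj4 change was upward too and did not pass. It passed there with arrays scaled to the same median (1.11, limma adjusted p = 0.0476) and with a floor at the 30th percentile (0.73, 0.0389). Without EOM day 0 replicate 2 (1.42, 0.0297) or EOM day 45 replicate 3 (1.38, 0.0336) it passed as well. Kcnj8, the Kir6.1 pore known from vascular smooth muscle, was higher in EOM at day 28, at 1480.3, 1259.8 and 1476.9 against 493.3, 1044.6 and 974.4 (0.82 ± 0.26, 0.0351). It was also higher at day 45, at 1318.6, 1361.2 and 1126.5 against 703.9, 504.3 and 1017.5 (0.83 ± 0.26, 0.0359). The groups did not overlap at either age. Each call was lost without any of 4 arrays (at both ages EOM replicates 1 and 2 and leg replicate 1, with EOM replicate 3 at day 28 and leg replicate 2 at day 45). Of 6 smooth muscle markers tested, 0 were higher and 1 was lower in EOM at day 28, and 5 were higher at day 45. The 1 lower at day 28 was Acta2 (-1.55, limma adjusted p = 0.00514). Myh11 then read 917.5 to 1154.3 in EOM and 331.5 to 744.5 in leg and did not pass. The sum of the markers was 20445.3 to 26866.3 in EOM and 31283 to 40785.3 in leg at day 28, and 25565.4 to 36900.9 and 18989.5 to 23757.8 at day 45. Most of this sum is Acta2 and Des (means 11725.6 and 11452.7), and Des is on the fibre list too, so it is a poor measure of smooth muscle. In leg Kcnj8 also changed with age by the F test (0.0387), a call lost without any of 7 of the 18 leg arrays. The part of smooth muscle content in the Kcnj8 difference was not tested.

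Kcnc4, the Kv3.4 channel known from skeletal muscle, rose with age in leg. It read 780.6, 520.2 and 782.3 at day 0 and 2330.2, 3696.8 and 2037.3 at day 45. The 2 groups were well apart, by 3.81-fold (1.93 ± 0.31, limma adjusted p = 9.8e-06), and its leg mean was highest at day 28 (4227.4, 3345 and 3873.2). In EOM it read 863, 861.4 and 897.5 at day 0 and 980.7, 2374.9 and 1264.6 at day 45, a change that did not pass between these ages (0.71 ± 0.31, 0.0765) and passed in the F test over the 6 ages (0.0289; lost without any of the 3 day 0 arrays or day 28 replicate 1 or 2). The EOM change between days 0 and 45 passed with arrays scaled to the same median (0.82, limma adjusted p = 0.0195) and with quantile normalization (0.90, 0.0152). It also passed with the replicate block (0.71, 0.034) and without EOM day 45 replicate 1 (0.99, 0.024). The difference of the changes was -1.22, with a 95% interval of -2.10 to -0.33 before adjustment, and it did not pass after adjustment (0.132). Without EOM day 45 replicate 2, the array that stood apart, it was -1.58 and passed (0.0288), and the muscle difference at day 45 was -1.22 and passed too (0.0132). Kcnc4 was lower in EOM in the mean over the ages (-0.40 ± 0.12, 0.0139). Over days 14 to 45 alone the difference was -0.81 (0.000142). With arrays scaled to the same median it passed at days 14, 28 and 45 (-0.98, -0.98 and -0.92; limma adjusted p = 0.0289, 0.0152 and 0.0263). With quantile normalization it passed at the same ages (0.0434, 0.027 and 0.0309).

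Kcnc1, the fast Kv3.1 channel, rose 2.95-fold in leg from 108, 201.5 and 182.6 to 309.7, 689.7 and 476.3 (limma adjusted p = 0.0088). The groups did not overlap, and the call was lost without leg day 0 replicate 1 or leg day 45 replicate 2. Kcnf1, an electrically silent Kv5.1 subunit, was lower in EOM at day 28, at 166.8, 148.8 and 281.2 against 492.8, 575.7 and 515.4 (2.76-fold, 0.0408), a call lost without any of 5 arrays (all but EOM replicate 3). It fell in EOM from day 0 to day 45 by at least 2.35-fold (0.0469), a call lost without EOM day 0 or day 45 replicate 1 or 2. Its lower mean in EOM over the ages (-0.53 ± 0.19, 0.0346) was lost without any of 12 of the 36 arrays. Kcnh6, an Erg2 channel best known from neurons, fell 3.30-fold in EOM, from 476.5, 445 and 454.9 to 123.3, 200.8 and 108.7 (0.0118). The fall missed the test without EOM day 45 replicate 3 (0.0506), and leg read 233.8, 165.9 and 322.6 at day 0 and 507, 431.3 and 99.5 at day 45. Kcna1, a Kv1.1 channel of axons, was higher in EOM in the mean over the ages (0.65 ± 0.24, 0.0408), a call lost without any of 20 of the 36 arrays.

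Of the calcium-activated channels, Kcnma1, the large-conductance BK channel, rose in both muscles and was higher in EOM. It read 462, 381.1 and 561.2 in EOM at day 0 and 1118.5, 1161.4 and 1306.3 at day 45. In leg it read 341.6, 459.6 and 446.4 at day 0 and 813.4, 823.8 and 597.1 at day 45. The late arrays lay above the early ones in both muscles, by 2.58-fold in EOM (limma adjusted p = 0.000552) and 1.79-fold in leg (0.0284). The leg call was lost without leg day 0 replicate 1 or leg day 45 replicate 1 or 2. Its mean difference between the muscles was 0.55 ± 0.12 (0.000672), and a second probe set gave 1.45 ± 0.17 (4.25e-08). At day 28 the muscles overlapped (1664.9, 1247 and 634.6 against 449.9, 525.8 and 773.9), and the difference of 0.95 ± 0.30 (0.0322) was lost without EOM or leg replicate 1 or 2.

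The small-conductance channel genes changed with age in leg by the F test. Kcnn3, the SK3 channel known from immature and denervated muscle, was at the floor on all 3 day 0 arrays of each muscle. In leg it read 395.6, 375.6 and 458.1 at day 28 and 52.5, 168.7 and 67.5 at day 45 (F test, limma adjusted p = 0.00272). Its leg level was thus lowest at the ends of the series and highest at day 28. In EOM the Kcnn3 mean was also lowest at day 0 and highest at day 28 (6.657 and 7.853 on the log2 scale). The EOM F test did not pass, but passed with a floor at the 10th percentile (limma adjusted p = 0.00673) and without EOM day 28 replicate 1 (0.00964). Kcnn1, the SK1 channel, was lowest in leg at day 14 (110.7, 710.2 and 456.9) and highest at day 45 (1354.6, 1090.8 and 965.8; F test, 0.0443), a call lost without any of 11 of the 18 leg arrays.

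Among the other calcium channel pores, Cacna1h, the T-type Cav3.2 of newborn muscle, fell in leg from 307.9, 649.9 and 792.2 at day 0 to 279.6, 94.5 and 82.8 at day 45. The groups did not overlap, and the fall was at least 3.82-fold (limma adjusted p = 0.0153), lost without leg day 0 or day 45 replicate 2 or 3. In EOM it read 95.5, 293.3 and 879.8 at day 0. Its mean over the ages was lower in EOM (-0.77 ± 0.25, 0.0181), and over days 14 to 45 alone the difference was -0.48 (0.265). Cacna1g, the T-type Cav3.1, changed with age in leg by the F test (0.00867), with its lowest mean at day 21 (765.5, 268.8 and 1037.3). Cacna1d, Cav1.3, fell in EOM from 438.7, 260.5 and 310.4 to 159.8, 136.8 and 132 (2.31-fold, 0.0377), but its other probe sets gave 0.36 and 0.69 (0.603 and 0.308) and the call was lost without any of 5 of the 6 arrays. Cacna1c, the cardiac Cav1.2 pore, passed in no comparison, with muscle differences of -0.25 to 0.40 over the ages. Its second probe set rose in leg (1.21 ± 0.42, 0.0264), as did the mean of its probe sets (0.89, 0.0329).

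Kcnk1, the two-pore channel TWIK-1 common in epithelia, was higher in EOM early. It read 1310.8, 1617.6 and 1126.9 in EOM and 408.5, 446.9 and 435 in leg at day 0. At day 7 it read 1112, 1142.6 and 674.6 in EOM and 287.5, 431.2 and 463 in leg. Every EOM array was above every leg array at both ages. The difference was 3.11-fold at day 0 (limma adjusted p = 0.00088) and 2.46-fold at day 7 (0.0125, lost without EOM replicate 1 or 2 or leg replicate 1). At day 14 the order was mixed, at 605.1, 466.4 and 307.3 in EOM and 563.2, 542.5 and 456.5 in leg. The mean over the ages was 0.69 ± 0.13 (0.000125), and over days 14 to 45 alone 0.30 (0.17).

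Epithelial and gland markers were higher in EOM at the same early ages as Kcnk1. Of 11 tested, among them the keratins Krt5 and Krt8, 11 were higher in EOM at day 0, 8 at day 7, 0 at days 14, 21 and 28, and 1 at day 45. Their sum was 34093.5 to 46275.6 in EOM and 3356.3 to 5993.9 in leg at day 0, 11147.8 to 24327.5 and 3156.9 to 5187.5 at day 7, and 3353.5 to 4012.5 and 3549 to 4848.1 at day 14. The part of epithelial content in the Kcnk1 difference, and in the other day 0 and day 7 values, was not tested.

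**Figure D4:**
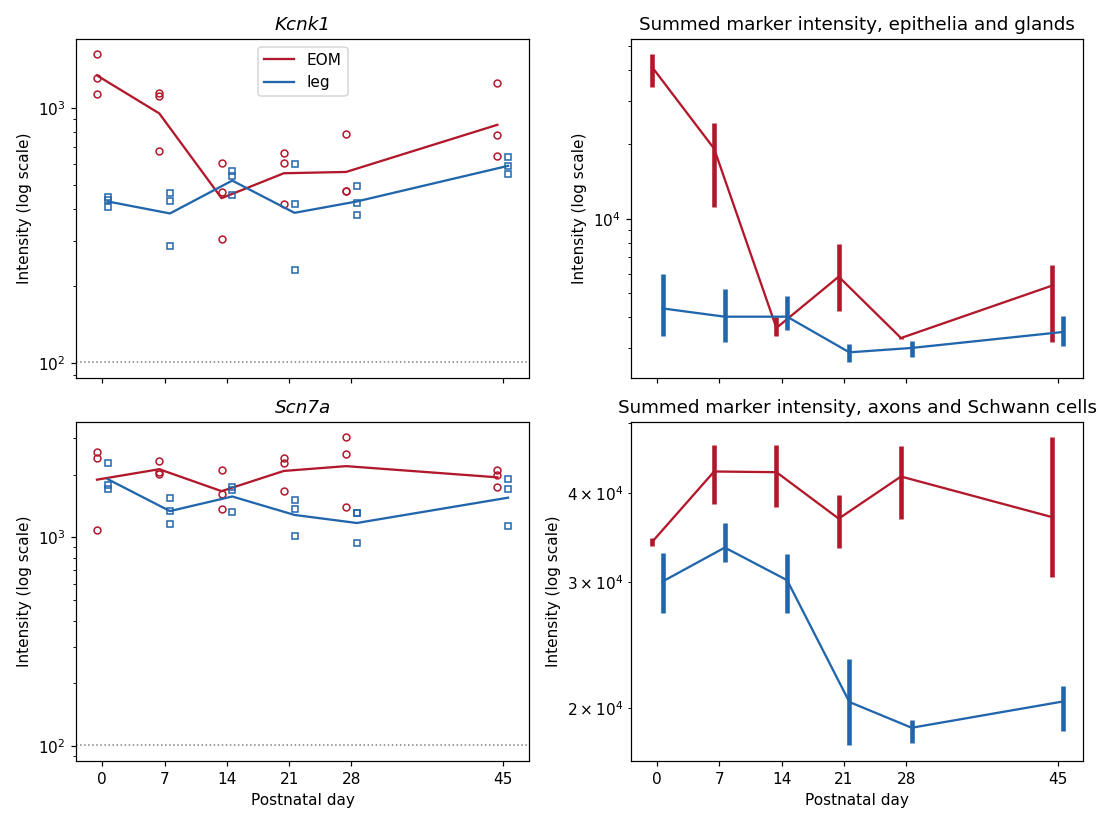
Left, intensity of Kcnk1 and Scn7a on every array (log axis) with group geometric means, for EOM (circles) and leg (squares) by postnatal day. Right, the range over the 3 arrays (bars) and the mean (line) of the summed intensity of 11 epithelial and gland markers and of 14 axon and Schwann cell markers: the epithelial sum in EOM is 34093.5 to 46275.6 at day 0 and 3353.5 to 4012.5 at day 14.

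In all, 28 of the 61 genes (45.9%) passed in at least 1 of the 12 comparisons and 33 in none, where 62% of all probe sets tested passed in at least 1. By class, 5 of 6 sodium channel pores, 3 of 4 chloride genes, 4 of 8 calcium channel pores, 4 of 8 inward rectifiers and 5 of 19 voltage-gated potassium pores passed somewhere, as did 0 of 3 potassium auxiliary and 0 of 2 epithelial sodium channel genes. The voltage-gated potassium pores that passed were Kcna1, Kcnc1, Kcnc4, Kcnf1 and Kcnh6. The ether-a-go-go family genes Kcnh2 and Kcnh3 and the M-current gene Kcnq3 were above 320 on all 36 arrays and passed nowhere. Kcnh2, the Erg1 channel, ranged only from 1399.2 to 2833.7, with the smallest within-group SD of the 61 genes (0.225). Its second, dimmer probe set was lower in EOM on average (-0.84 ± 0.16, limma adjusted p = 0.000114) and fell with age in both muscles, so the probe sets of Kcnh2 disagree. The second probe set of Kcnh3 rose with age in EOM (1.51 ± 0.51, 0.0219), where the brighter one gave 0.05.

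Among the 33 genes that passed nowhere, mean differences between the muscles lay between -0.28 (Scn3a) and 0.52 (Kcna4), and changes to day 45 between -0.84 (Kcne1) and 0.98 (Kcnd2) in EOM and between -1.21 (Kcnj10) and 0.99 (Kcns3) in leg. Some were large at 1 age without passing. Kcnk5, a two-pore channel like Kcnk1, read 879.1, 790.5 and 670 in EOM and 82.7, 456 and 435.7 in leg at day 0 (1.51 ± 0.55, limma adjusted p = 0.113).

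Genes that work with the channels were read from 3 lists. Of 13 tested genes of excitation-contraction coupling, 3 were higher (19.8% of all probe sets were) and 6 lower (12%) in EOM in the mean over the ages. The calcium handling gene Dhrs7c (-2.59 ± 0.16, limma adjusted p = 1.48e-13), Asph, which also encodes junctin and junctate (-0.77 ± 0.08, 1.44e-08), and junctophilin Jph2, which ties the tubule to the calcium store (-0.78 ± 0.10, 5.95e-07), were lower with Cacng1 and Cacna1s, while Pln, encoding phospholamban, which restrains the calcium pump, was higher (1.54 ± 0.15, 1.39e-09). From day 0 to day 45, 6 rose (12.9% of all) and 2 fell (18.4%) in EOM, and 3 rose (14.4%) and 1 fell (18.4%) in leg. The cytosolic calcium buffer parvalbumin Pvalb rose by 4.96 (EOM) and 5.58 (leg) log2 units. The calcium pump Atp2a1 and the store protein Casq1 were tested and were not among those that passed between the muscles on average.

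Of 18 tested genes of membrane potential and synaptic current, 7 were higher (19.8% of all) and 2 lower (12%) in EOM on average. The acetylcholine receptor subunits Chrna1, Chrnb1, Chrnd and Chrne were among the higher ones, with Chrne of the adult receptor at 0.81 ± 0.10 (limma adjusted p = 1.17e-07). Chrnd was lower in EOM at days 0 and 7 (-0.94 and -0.95; 0.000677 and 0.000881) and higher at days 21, 28 and 45 (0.82, 1.25 and 1.15; 0.00651 at the weakest). Chrng, of the fetal receptor, was lower in EOM at day 0 (-0.70, 0.00957). The sodium pump beta subunits parted, with Atp1b1 higher (1.03 ± 0.12, 9.2e-08) and Atp1b2 lower (-1.28 ± 0.17, 5.59e-07). Of 17 tested genes of channel anchoring and regulation, 1 was higher (19.8% of all) and 6 were lower (12%) in EOM on average, among the lower ones the kinase subunit Camk2d (-0.89 ± 0.09, 6.7e-09) and the calcineurin catalytic subunit Ppp3ca (-0.62 ± 0.10, 1.12e-05). In the difference of the changes, where 0 channel genes passed, 2 of 13, 4 of 18 and 2 of 17 genes of these lists did (2.25% of all probe sets upward and 1.45% downward), with Chrnd at 2.09 ± 0.26 (3.44e-06) and Atp1b2 at -2.46 ± 0.59 (0.0131).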

How the data were processed

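The 36 arrays form 12 groups of 3, by muscle and postnatal day, as the labels give them. The authors deposited 1 linear intensity per probe set and array. Each array's trimmed mean lay between 1499.4 and 1501.1, the mark of a global scaling by the authors. Which software summarised the probes was not given in the sources used here. Gene symbols come from the platform annotation and matched the RefSeq gene table for all 61 genes.

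The deposited scaling was kept. Low values were raised to the 20th percentile of the table (100.9) and log2 was taken, 59 control probe sets were left out, and 6674 of 8799 probe sets above 320 on 3 or more arrays were tested. A fold with a dimmer group touching the floor is written as at least. The test was limma's (version 3.58.1, R 4.3.3): 1 mean per group, every array in the fit, and a prior variance that follows intensity (24 residual and 5.84 prior degrees of freedom). P-values were adjusted by the Benjamini-Hochberg method over all 6674 probe sets within each of 12 comparisons, with a threshold of 0.05. Moderated tests are two-sided. The number of arrays limits the precision. On simulated data, 41% of 2-fold and 89% of 4-fold differences between the muscles at day 45 were recovered among 6674 probe sets. For the difference of the changes 12% and 54% were recovered, so a lack of calls there does not show that the changes were alike. The simulated noise was normal and no floor was applied to it, unlike the data.

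The members, the gene lists and the alternatives were chosen with earlier results of these data known. The text names every channel gene called in a comparison and other channel genes by class. From a partner list it names up to 4 called genes per comparison, except for the membrane potential list, where more are named. The genes named are not always those of the largest difference. A list of known muscle channel genes was tested at every age, and only for Cacng1 and Cacna1s is every difference between the muscles printed. Deviations of same-numbered EOM and leg arrays from their group means correlated above 0.1 in all 3 pairs at days 7, 14 and 21 (lowest 0.1014), and not in all pairs at the other ages. Plots used matplotlib (3.10.9) under python (3.11.15).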

Additional observations from a re-analysis of the deposited data

Results flagged for a closer look

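Cacnb3, a calcium channel beta subunit, had day 45 arrays on opposite sides of its day 0 arrays in the 2 muscles, but passed the test in no comparison. In EOM it read 942.6, 569.2 and 623 at day 0 and 469.6, 528.6 and 372.1 at day 45, and in leg it read 360.6, 431.6 and 375.6 at day 0 and 492.1, 543 and 706.4 at day 45. Every day 45 array was below every day 0 array in EOM and above every one in leg. Neither change passed (-0.62 ± 0.28, limma adjusted p = 0.0972 in EOM and 0.56 ± 0.28, 0.127 in leg). The difference of the changes, EOM minus leg, was -1.18 ± 0.40 on the log2 scale and did not pass the test (limma adjusted p = 0.103, unadjusted p = 0.00585).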

How the results depend on the processing

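Of 83 pairs of a channel gene and a comparison that passed the test, 42 passed under every alternative run, 0 reversed, 35 missed it under at least 1 alternative other than leaving out an array, and 32 missed it without at least 1 array. The count at day 21 was 1 and became 2 with arrays scaled to the same median, 0 with quantile normalization, 0 with a fit of the compared groups alone, 3 with the mean of the probe sets of a gene and 3 with the replicate block. At day 45 the count of 3 became 5 with quantile normalization, 5 with a floor at the 30th percentile, 1 with the compared groups alone, 5 with the mean of the probe sets and 5 with the replicate block. At day 7 the count of 3 became 1, 5 and 6 under the last 3 of these settings, and at day 28 the count of 8 became 2 with the compared groups alone, which leaves fewer arrays to estimate the spread. The difference of the changes became 1 (Kcnh6) with a floor at the 30th percentile. The cause was not tested for the other settings. Leaving out 1 array gave 3 to 4 calls at day 0, 1 to 3 at day 7, 1 to 3 at day 14, 0 to 3 at day 21, 3 to 5 at day 28 and 1 to 7 at day 45. It gave 13 to 16 in the mean over the ages, 9 to 12 for day 45 against day 0 in each muscle, 0 to 1 for the difference of the changes, 9 to 15 for any change with age in EOM and 10 to 14 in leg. The replicate block moved no other count of calls by over 1.5 times, and it ended the calls of Kcnj8 at days 28 and 45 and of Kcnma1 at day 28. Scaling to the same median moved the median of all probe sets by -0.13 at day 0, -0.13 at day 21 and 0.10 in EOM between days 0 and 45. Probe sets near the floor bound, rather than measure, the fold of Clcn1, Scn11a, Kcnj12, Cacna1h and Kcnf1.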
